A study of Homo sapiens with 32 samples.

Results

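The 10 genes described here come from 3 protein families and a related gene, and are listed together as feedback genes of ERK signalling. They are SPRY1, SPRY2 and SPRY4 (Sprouty), SPRED1, SPRED2 and SPRED3 (Spred), ETV1, ETV4 and ETV5 (ETS transcription factors), and the related gene PHLDA1. They were chosen by name, from the Ensembl identifiers of a count table that lists 48804 genes, and all 10 were found in it. All 10 also passed the filter on low counts in each main fit, so that none is missing from the main tests below. In some alternative fits SPRED3 did not have a value.

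When a receptor tyrosine kinase such as EGFR is active, the signal passes through RAS and the kinases RAF and MEK to ERK, which phosphorylates transcription factors and so turns on a set of early genes. Sprouty and Spred proteins, several of them products of this set, dampen the cascade upstream of ERK. Spred proteins do so by bringing the RAS-inactivating protein NF1 to the membrane. ETV1, ETV4 and ETV5 make up the PEA3 group of ETS factors, which carry the output on to further genes and are held down by the repressor CIC until ERK signalling relieves it. PHLDA1 encodes a small protein with a pleckstrin homology-like domain whose transcript is induced by growth factors. In cells driven by EGFR, such transcripts are widely read as a gauge of the ERK output.

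MDA-MB-468 is an established human cell line of triple-negative breast cancer with a high level of EGFR. The cells received PBS (Control), 0.5 μM salinomycin (Sal), 15 μM dasatinib (Das) or both drugs together (S + D, 15.5 μM in all), for 24 h or 72 h. Salinomycin is a potassium ionophore, and dasatinib is a kinase inhibitor whose targets include the SRC family and ABL. RNA was sequenced from 4 cultures per condition, stated to be biological replicates, which gives 32 libraries of a single cell line grown in plastic flasks, with no other line and no further dose. In bulk RNA of this kind, fewer cells of a type and less RNA per cell cannot be told apart.

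The libraries held between 25692561 and 42769687 counts. In each condition 3 libraries carry a replicate number and the fourth has none. The unnumbered libraries deviated from their group means in the same way, with correlations across genes of 0.588 to 0.666 between conditions at 24 h and 0.522 to 0.611 at 72 h. Same-numbered libraries correlated at 0.135 to 0.321 at 24 h and at -0.03 to 0.253 at 72 h. Libraries of different numbers, the unnumbered ones included, correlated at -0.524 to 0.353 at 24 h and -0.464 to 0.291 at 72 h. Deviations were taken from the mean of all 4 libraries, so the shared offset of the unnumbered library also makes numbered libraries correlate. The correlations therefore cannot show that the numbers pair libraries, and the pairing, taken at 24 h only, is an assumption. The main fits did not use this pairing, and fits paired by number are given beside them as an alternative. Of the markers of the labelled cell type, EGFR was at 2792 to 5920 CPM (a library's counts scaled to a common total), EPCAM at 206 to 393 CPM, ESR1 at 3.64 to 12.0 CPM and PGR at no more than 3 counts in any library. Several keratins of the epithelial and basal-like lists had lower means in the treated conditions at 72 h, as every member but SPRED3 did. In the order Control, Sal, Das and S + D, mean CPM over 4 libraries was 531, 44, 106 and 103 for KRT5, 17.8, 0.405, 1.58 and 0.317 for KRT14, and 2849, 941, 1422 and 584 for KRT19, but 38.9, 51.2, 45.4 and 144 for KRT17. The summed level of the 5 epithelial markers at 72 h, most of it keratins, was 5041 to 5686, 2085 to 3128, 2495 to 3797 and 1825 to 2187 CPM in that order. The other epithelial markers did not share that fall, with means of 269, 319, 302 and 327 CPM for CDH1 and 351, 297, 310 and 311 CPM for EPCAM. The summed level of the 6 basal-like markers, most of it EGFR, was 5818 to 6563, 4283 to 4849, 4335 to 5988 and 3109 to 4662 CPM. The part of these markers in the results below was not tested. Of 4 leukocyte markers none exceeded 7 counts. The summed level of 4 fibroblast markers was 23.8 to 32.5 CPM in Control and 68.7 to 122 CPM in S + D at 72 h, nearly all of it COL1A1, while COL3A1 and DCN had at most 2 counts in any library. The part of COL1A1 in the results below was not tested.

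The members differed in level already in untreated cells. Per kilobase of exon (RPKM, the only scale used here to compare genes with each other), SPRED2 was highest in Control at 24 h, at 10.9 ± 1.33 (SD, n = 4). PHLDA1 at 7.40 ± 0.706, SPRY2 at 7.27 ± 1.51, ETV4 at 7.26 ± 1.49 and SPRY1 at 6.47 ± 1.77 RPKM followed, and the ranges of these neighbours overlapped. SPRY4 at 4.08 ± 0.362 and SPRED1 at 3.77 ± 0.124 RPKM overlapped as well. Below them came ETV5 at 2.04 ± 0.339, ETV1 at 0.848 ± 0.124 and SPRED3 at 0.0355 ± 0.00998 RPKM, each apart from its neighbours. At 72 h in Control, ETV4 stood beside SPRED2, at 13.2 ± 1.19 and 13.4 ± 1.88 RPKM, with overlapping ranges.

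The first question was which of these genes responded to each drug. Calls required an adjusted p below 0.01 (edgeR's quasi-likelihood test, Benjamini-Hochberg adjustment over all genes tested). At 24 h, Sal lowered 1 of the 10 members (SPRY4), where 2.23% of all genes tested were called lower and 4.55% higher. Das lowered 5 (SPRY4, SPRED1, ETV1, ETV4 and ETV5), against 6.88% lower and 6.99% higher among all genes. S + D lowered 8, all but SPRED2 and SPRED3, against 16.5% lower and 17.1% higher. With libraries paired by number (replicate block), the count was 3 for Sal, with ETV4 (log2 fold change -0.72, adjusted p = 0.00585) and PHLDA1 (-0.63, adjusted p = 0.00245) added. Under the same pairing it was 8 for Das, with SPRY1 (-0.52, adjusted p = 0.00148), SPRED2 (-0.67, adjusted p = 5.98e-06) and PHLDA1 (-0.59, adjusted p = 0.00239) added, and SPRED2 was also lower with S + D (-0.74, adjusted p = 6.71e-07). Of all 16357 genes, the paired fit called 3055 for Sal, 4485 for Das and 8215 for S + D in either direction. Without pairing these were 1109, 2268 and 5498.

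At 72 h, more members had moved. Sal lowered 8 members and raised SPRED3, where 26.8% of all genes tested were called lower and 26.3% higher. SPRY2 alone was not called (log2 fold change -0.41, adjusted p = 0.0114), though 4 of 8 alternative fits called it lower. Das lowered 9 and raised SPRED3, against 9.36% lower and 10.5% higher among all genes. S + D did the same, against 27.9% lower and 27% higher. The members' median log2 fold change at 24 h was -0.37 for Sal, -0.75 for Das and -0.93 for S + D. At 72 h it was -1.52, -1.32 and -2.90 in that order, while the median of all genes tested lay between -0.02 and 0.04 in these comparisons. The 3 treatments share the 4 Control libraries of their time point, so these counts are not independent of each other.

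**Figure D1:**
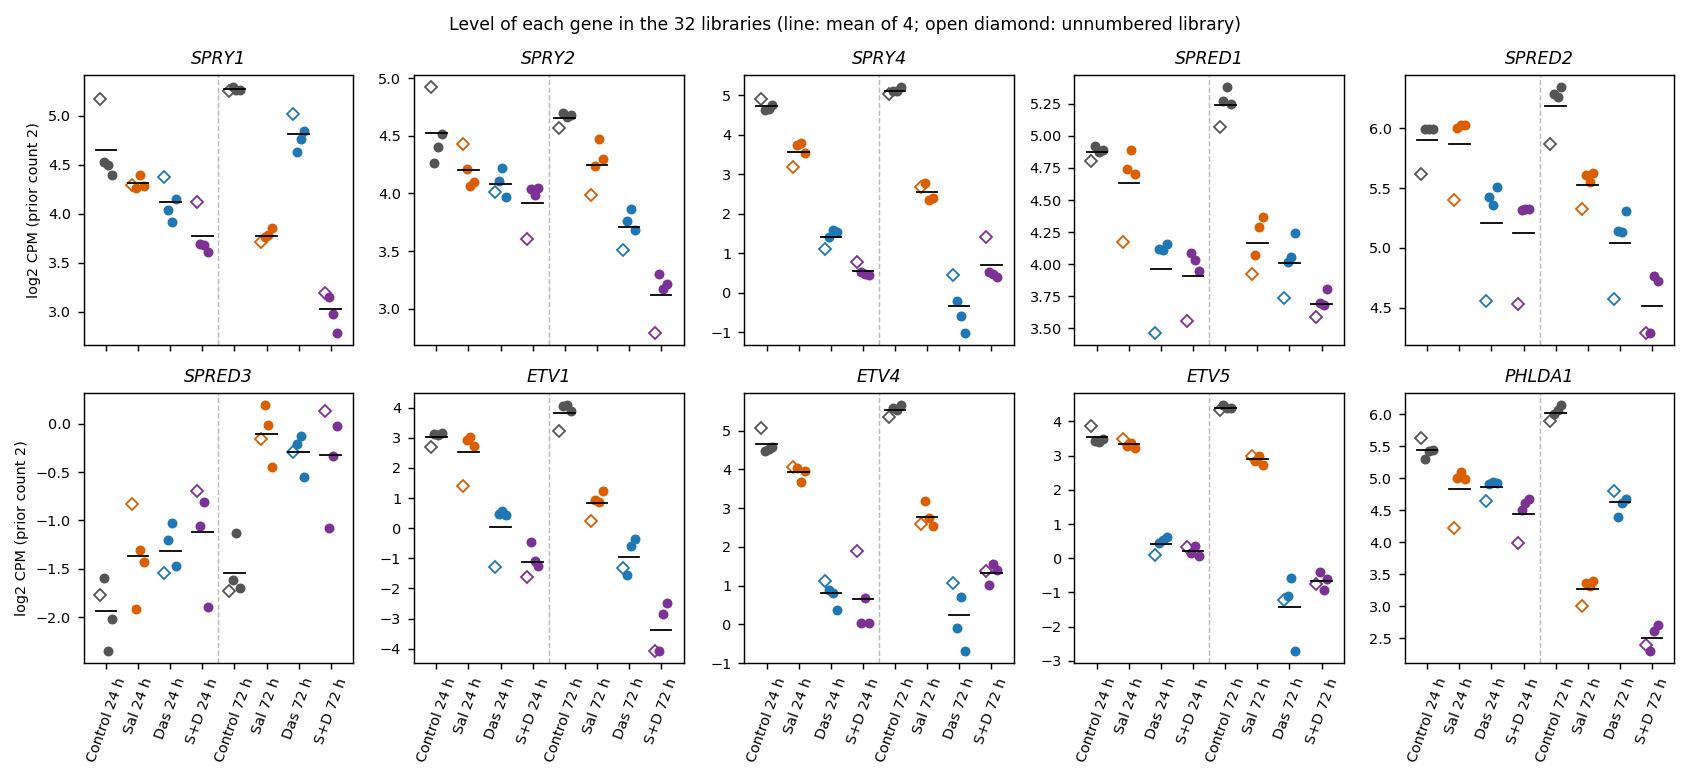
Each panel gives the level of a gene, as log2 CPM with a prior count of 2, in the 4 libraries of each of the 8 conditions. Filled circles are numbered libraries, open diamonds the unnumbered library, and the line is the mean of 4. SPRY4, ETV1, ETV4 and ETV5 fall by several log2 units with Das, while SPRY1 and PHLDA1 fall furthest with Sal and S + D at 72 h and SPRED3 lies above its Control libraries at 72 h.

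SPRY4 (ENSG00000187678, GRCh37 chr5:141689992-141706020), a Sprouty protein that inhibits the path from receptor to RAS, was the member lowered in all 6 comparisons with Control. Values are given for the unnumbered library first and then for replicates 1 to 3. At 24 h its level was 30.0, 24.7, 25.3 and 26.9 CPM in Control, 9.05, 13.2, 13.9 and 11.5 CPM with Sal, 2.10, 2.62, 2.96 and 2.83 CPM with Das, and 1.67, 1.39, 1.34 and 1.32 CPM with S + D. No 2 of these conditions overlapped. Sal lowered SPRY4 2.25-fold (log2 fold change -1.17, 95% confidence interval -1.48 to -0.869, adjusted p = 6.22e-05), Das 10.1-fold (-3.33, -3.67 to -2.99, adjusted p = 2.17e-09) and S + D 18.2-fold (-4.19, -4.54 to -3.83, adjusted p = 2.98e-10).

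At 72 h SPRY4 was at 32.4, 34.2, 34.2 and 37.0 CPM in Control and at 6.32, 6.79, 5.08 and 5.24 CPM with Sal. It was at 1.32, 0.808, 0.607 and 0.435 CPM with Das and at 2.61, 1.38, 1.34 and 1.25 CPM with S + D. The order of the last 2 conditions thus differed from that at 24 h, and their ranges overlapped. Sal lowered it 5.95-fold (log2 fold change -2.57, adjusted p = 1.75e-07), Das 42.5-fold (-5.41, adjusted p = 2.32e-09) and S + D 21.1-fold (-4.40, adjusted p = 1.75e-09). The SPRY4 promoter in the RefSeq table (GRCh38.p14, chr5:142324198-142324497, minus strand, a later build than that of the counts) is shown because this gene moved in every comparison with Control. None of the 5 motifs searched occurs in it, so it holds no capitals.
SPRY4: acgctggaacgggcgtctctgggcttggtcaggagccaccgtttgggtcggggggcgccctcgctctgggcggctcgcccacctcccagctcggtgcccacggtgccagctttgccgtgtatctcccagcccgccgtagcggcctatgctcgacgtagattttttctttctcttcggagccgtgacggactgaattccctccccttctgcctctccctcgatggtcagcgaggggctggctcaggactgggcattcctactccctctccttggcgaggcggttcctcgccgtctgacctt

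ETV1, ETV4 and ETV5 were the other members that Das lowered most. ETV5 (ENSG00000244405, GRCh37 chr3:185764103-185828107) was at 14.7, 10.6, 10.5 and 11.2 CPM in Control at 24 h and at 1.01, 1.30, 1.39 and 1.47 CPM with Das. At 72 h it was at 20.2, 22.4, 21.1 and 20.8 CPM in Control, 7.95, 7.18, 7.87 and 6.59 CPM with Sal, 0.367, 0.404, 0.607 and 0.0932 CPM with Das, and 0.533, 0.704, 0.471 and 0.596 CPM with S + D. Das and S + D overlapped, and both lay far below Sal, which lay below Control. The fall with Das was 9.02-fold at 24 h (log2 fold change -3.17, adjusted p = 2.17e-09) and 57.9-fold at 72 h (-5.85, adjusted p = 5.14e-10), the latter from 3 to 17 counts a library. Sal left ETV5 short of the threshold at 24 h (-0.23, adjusted p = 0.279) and lowered it 2.89-fold at 72 h (-1.53, adjusted p = 7.46e-06).

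ETV4 (ENSG00000175832, GRCh37 chr17:41605212-41656988) was at 40.9, 48.0, 46.4 and 50.8 CPM in Control at 72 h, 5.97, 8.96, 6.67 and 5.77 CPM with Sal, 2.03, 0.870, 1.57 and 0.559 CPM with Das, and 2.53, 1.95, 2.91 and 2.59 CPM with S + D. The treated libraries all lay below the Control libraries, and Das overlapped S + D. Sal lowered ETV4 6.88-fold (log2 fold change -2.78, adjusted p = 1.09e-07), Das 36.7-fold (-5.20, adjusted p = 2.5e-09) and S + D 18.8-fold (-4.23, adjusted p = 2.93e-09). At 24 h Das had lowered it 14.5-fold (-3.86, adjusted p = 8.07e-07) and S + D 14-fold (-3.81, adjusted p = 2.68e-07). Of the exon bases of ETV4, 1.93% overlap DHX8 on the other strand, and 2.84% of those of ETV5 overlap DGKG, so a few reads could belong to those genes.

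ETV1 (ENSG00000006468, GRCh37 chr7:13930854-14031050) fell furthest of the members with S + D at 72 h. At 72 h it was at 9.34, 16.7, 17.0 and 14.6 CPM in Control, 1.12, 1.85, 1.76 and 2.30 CPM with Sal, 0.343, 0.280, 0.607 and 0.715 CPM with Das, and 0, 0, 0.0785 and 0.119 CPM with S + D. The 4 conditions did not overlap. In S + D these values stand for 0, 0, 3 and 4 counts, 7 in all against 2016 in Control, a ratio of 284 with an exact 95% interval of 137 to 706 that covers counting error only. The fitted log2 fold change was -3.06 with Sal (adjusted p = 5.93e-07), -4.91 with Das (adjusted p = 1.07e-07) and -8.07 with S + D (adjusted p = 1.51e-09), and the last depends on how the fit treats the counts of 0. At 24 h ETV1 was lower with Das (-2.89, adjusted p = 6.21e-05) and S + D (-4.21, adjusted p = 1.3e-06), and with Sal it did not pass the threshold (-0.41, 95% confidence interval -1.15 to 0.333, adjusted p = 0.502).

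The promoter of ETV1 is shown because, of the member windows, it alone holds a searched CIC octamer together with an ETS core. CIC is the repressor of the PEA3 genes, and other forms of its site were not searched. It spans chr7:13991376-13991675 on the minus strand of GRCh38.p14, and the capitals mark CCGGAA and TGAATGGA.
ETV1: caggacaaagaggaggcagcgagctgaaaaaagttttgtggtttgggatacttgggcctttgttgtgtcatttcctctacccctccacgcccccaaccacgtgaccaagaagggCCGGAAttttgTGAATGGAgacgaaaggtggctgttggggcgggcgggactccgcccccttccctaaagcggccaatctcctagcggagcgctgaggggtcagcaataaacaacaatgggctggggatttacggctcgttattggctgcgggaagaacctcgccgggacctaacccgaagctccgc

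SPRY1 and PHLDA1 formed a different pattern at 72 h, with Sal lowering them more than Das. At 24 h Das and Sal did not differ past the threshold in SPRY1 (log2 difference -0.15, 95% confidence interval -0.499 to 0.195) or PHLDA1 (0.017, -0.365 to 0.399), and in the numbered libraries alone SPRY1 was lower with Das (-0.26, adjusted p = 0.00758). SPRY1 (ENSG00000164056, GRCh37 chr4:124317950-124324915), another Sprouty inhibitor of receptor signalling, was at 38.2, 39.2, 38.5 and 38.5 CPM in Control at 72 h, 13.1, 13.5, 13.7 and 14.4 CPM with Sal, 32.4, 24.7, 27.1 and 28.7 CPM with Das, and 9.12, 8.83, 7.85 and 6.83 CPM with S + D. The 4 conditions were fully separate, in the order Control, Das, Sal and S + D. Sal lowered it 2.86-fold (log2 fold change -1.51, adjusted p = 2.36e-08) and S + D 4.78-fold (-2.26, adjusted p = 2.91e-10). The fall with Das was 1.37-fold (-0.46, adjusted p = 0.0054), and this call was lost on leaving out any Control library, Das replicate 1 or Das replicate 2, with adjusted p from 0.0114 to 0.0345. At 24 h the unnumbered Control library stood at 36.1 CPM and the other 3 at 21.0 to 23.0 CPM, and S + D lowered SPRY1 1.82-fold (-0.86, adjusted p = 0.000483).

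PHLDA1 (ENSG00000139289, GRCh37 chr12:76419227-76425556) was at 59.3, 64.3, 67.0 and 70.9 CPM in Control at 72 h, 7.95, 10.3, 9.89 and 10.5 CPM with Sal, 27.9, 21.0, 24.4 and 25.6 CPM with Das, and 5.22, 4.86, 6.07 and 6.50 CPM with S + D. Here too the 4 conditions were separate and in the same order as for SPRY1. Sal lowered PHLDA1 6.86-fold (log2 fold change -2.78, adjusted p = 3.89e-10), Das 2.65-fold (-1.41, adjusted p = 8.15e-07) and S + D 11.7-fold (-3.54, adjusted p = 1.43e-11). At 24 h S + D lowered it 1.93-fold (-0.95, adjusted p = 0.000481). An antisense gene, PHLDA1-AS1, overlaps 9.35% of its exon bases, and since the use of strand in counting is not given in the sources used here, reads of both cannot be told apart over that stretch.

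SPRY2, SPRED1 and SPRED2 fell with both Das and S + D at 72 h. SPRY2 (ENSG00000136158, GRCh37 chr13:80910111-80915261), which acts like SPRY1 on the receptor pathway, was at 23.7, 25.9, 25.3 and 25.6 CPM in Control at 72 h, 15.7, 18.8, 22.1 and 19.7 CPM with Sal, 11.3, 13.5, 14.5 and 12.8 CPM with Das, and 6.85, 9.79, 8.93 and 9.21 CPM with S + D. All treated libraries lay below all Control libraries. Das lowered it 1.94-fold (log2 fold change -0.95, adjusted p = 6.68e-05) and S + D 2.92-fold (-1.55, adjusted p = 6.24e-08). Without Sal replicate 2, the change with Sal also passed the threshold (-0.49, adjusted p = 0.00726). It passed as well in 4 of 8 alternative fits, all 8 of which gave a fall (-0.42 to -0.36).

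SPRED1 (ENSG00000166068, GRCh37 chr15:38545037-38649450), the Spred protein best known as the partner of NF1, was at 33.5, 38.5, 41.6 and 37.9 CPM in Control at 72 h, and its highest treated library was at 20.6 CPM. It fell 2.13-fold with Sal (log2 fold change -1.09, adjusted p = 1.69e-06), 2.35-fold with Das (-1.23, adjusted p = 4.38e-06) and 2.97-fold with S + D (-1.57, adjusted p = 4.16e-08). At 24 h it had fallen 1.82-fold with Das (-0.87, adjusted p = 0.00171) and 1.89-fold with S + D (-0.92, adjusted p = 0.000454).

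SPRED2 (ENSG00000198369, GRCh37 chr2:65537985-65659771), a close relative of SPRED1, differed between the unnumbered library and the rest in each condition at 24 h. At 24 h it was at 49.0, 63.5, 63.8 and 63.8 CPM in Control, 42.2, 64.2, 65.2 and 65.3 CPM with Sal, 23.4, 42.8, 41.0 and 45.4 CPM with Das, and 23.1, 39.7, 40.1 and 40.1 CPM with S + D. The unnumbered library was the lowest in each condition, and Das and S + D lay wholly below Control, while Sal overlapped it. In the numbered libraries alone SPRED2 was lower with Das (log2 fold change -0.53, adjusted p = 7.61e-08) and S + D (-0.66, adjusted p = 1.84e-09), and with Sal it stood at 0.041 (adjusted p = 0.56). At 72 h all 3 treatments lowered it, by 1.61-fold with Sal (-0.69, adjusted p = 0.00122), 2.22-fold with Das (-1.15, adjusted p = 7.27e-05) and 3.22-fold with S + D (-1.69, adjusted p = 1.76e-07).

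SPRED3 (ENSG00000188766, GRCh37 chr19:38879061-38890227), the third gene of the Spred family, was scarce, with 5 to 37 counts a library, and the only member that rose. At 72 h it was at 0.242, 0.268, 0.397 and 0.250 CPM in Control, 0.838, 1.08, 0.929 and 0.673 CPM with Sal, 0.759, 0.808, 0.857 and 0.621 CPM with Das, and 1.04, 0.416, 0.733 and 0.924 CPM with S + D. Every treated library lay above every Control library, S + D replicate 1 by the narrowest margin. It rose 2.97-fold with Sal (log2 fold change 1.57, 95% confidence interval 0.924 to 2.22, adjusted p = 0.000247), 2.59-fold with Das (1.37, adjusted p = 0.00278) and 2.64-fold with S + D (1.40, adjusted p = 0.000679). In the numbered libraries alone, only the rise with Sal passed (1.51, adjusted p = 0.0018), with Das at 1.29 (adjusted p = 0.0125) and S + D at 1.15 (adjusted p = 0.0114). The rise with Das also missed the threshold without the unnumbered Control library (1.29, adjusted p = 0.0101) or Control replicate 3 (1.31, adjusted p = 0.0116).

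A SPRED3 promoter is shown because this gene moved against the others and because it holds the other CIC octamer searched and an AP-1 site. It spans chr19:38389541-38389840 on the plus strand of GRCh38.p14, with TGAATGAA and TGACTCA in capitals.
SPRED3: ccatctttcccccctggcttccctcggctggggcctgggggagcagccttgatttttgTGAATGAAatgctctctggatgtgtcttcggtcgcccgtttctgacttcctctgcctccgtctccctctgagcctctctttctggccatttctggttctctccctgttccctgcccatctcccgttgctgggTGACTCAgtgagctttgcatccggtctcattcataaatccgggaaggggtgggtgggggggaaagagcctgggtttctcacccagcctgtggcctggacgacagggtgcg

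**Figure D2:**
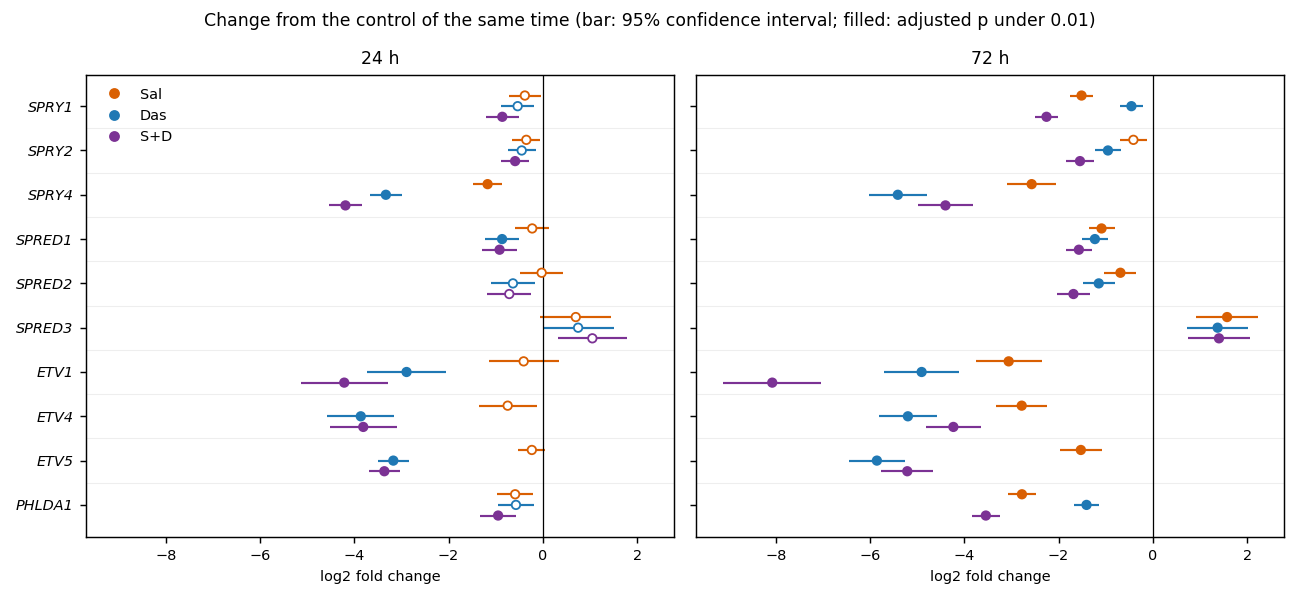
Log2 fold change of each member from the Control of the same time with Sal (orange), Das (blue) and S + D (purple), at 24 h on the left and 72 h on the right; bars are 95% confidence intervals and filled points have an adjusted p under 0.01. The change of SPRY4, ETV1, ETV4 and ETV5 with Das is past -2.8 at 24 h and past -4.9 at 72 h, and SPRED3 is the member on the right of 0 at 72 h.

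Set against each other at the doses used, 0.5 μM and 15 μM, the single drugs differed in which members they lowered. At 24 h, 4 members were lower with Das than with Sal (all genes: 3.7% lower, 4.29% higher): SPRY4 by 4.46-fold, ETV1 by 5.59-fold, ETV4 by 8.67-fold and ETV5 by 7.66-fold. The call of ETV1 (-2.48, adjusted p = 0.000443) was lost in a fit of only the groups compared (-2.48, adjusted p = 0.0121). With pairing by number, SPRED1 (log2 difference -0.64, adjusted p = 0.000149) and SPRED2 (-0.62, adjusted p = 2.59e-05) were lower as well. That fit called 3436 of 16357 genes in either direction, against 1308 without pairing. At 72 h, 5 members were lower with Das and 2 were higher (all genes: 15.2% lower, 16.9% higher). ETV5 was lower by 20.1-fold (-4.33, 95% confidence interval -4.90 to -3.75, adjusted p = 1.08e-08), SPRY4 by 7.15-fold (-2.84, adjusted p = 9.4e-07), ETV4 by 5.33-fold (-2.41, adjusted p = 4.08e-06) and ETV1 by 3.59-fold (-1.85, adjusted p = 0.000761).

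SPRY2 was 1.45-fold lower with Das than with Sal at 72 h (log2 difference -0.54, adjusted p = 0.00341), a call that was lost without Sal replicate 2 (-0.46, adjusted p = 0.0167), Sal replicate 3 (-0.52, adjusted p = 0.0104) or the unnumbered Das library (-0.49, adjusted p = 0.0116). PHLDA1 was 2.58-fold higher with Das than with Sal (1.37, 1.09 to 1.65, adjusted p = 8.07e-07) and SPRY1 2.08-fold higher (1.06, 0.814 to 1.30, adjusted p = 2.58e-06). No library of Das overlapped a library of Sal for either gene. The differences of SPRED1 (-0.14, -0.417 to 0.135), SPRED2 (-0.46, -0.801 to -0.118) and SPRED3 (-0.20, -0.796 to 0.394) did not pass the threshold.

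**Figure D3:**
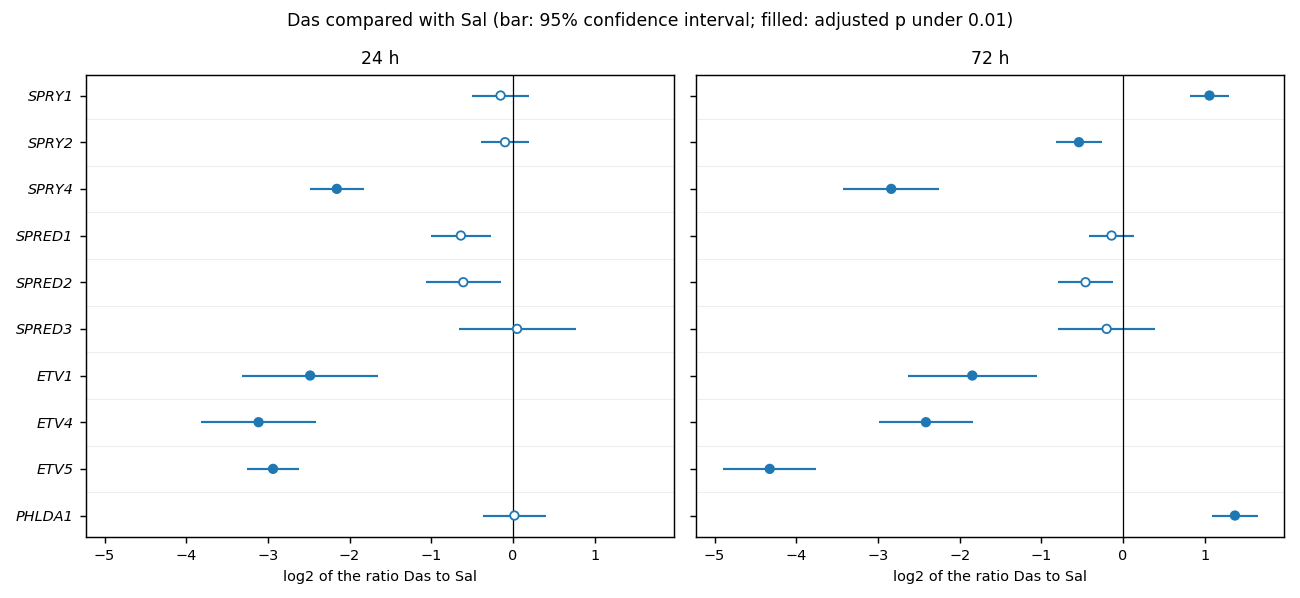
Log2 of the ratio of Das to Sal for each member at 24 h (left) and 72 h (right), with 95% confidence intervals; filled points have an adjusted p under 0.01. SPRY4, ETV1, ETV4 and ETV5 lie left of 0 at both times, and SPRY1 and PHLDA1 lie right of 0 at 72 h, at 1.06 and 1.37.

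The next question was what the second drug added. At 24 h, S + D was below Sal in 5 members (all genes: 7.06% lower, 5.83% higher), namely SPRY4, ETV1, ETV4, ETV5 and SPRED1, and below Das in SPRY4 alone (all genes: 4.46% lower, 4.03% higher). SPRY4 stood at a log2 difference of -0.86 from Das (95% confidence interval -1.21 to -0.509, adjusted p = 0.00226), and without S + D replicate 3 at -0.82 (adjusted p = 0.01, no longer called). SPRED1 stood at -0.69 from Sal (adjusted p = 0.00892), and leaving out any library of the pair other than the unnumbered Sal library took this call away, at adjusted p from 0.0146 to 0.0284. With pairing by number, SPRY1 (-0.50, adjusted p = 0.00235) and SPRED2 (-0.70, adjusted p = 4.9e-06) were also below Sal, and ETV1 was also below Das (-1.29, adjusted p = 0.00287). Among all 16357 genes, pairing called 4520 against Sal and 3595 against Das in either direction, where 2108 and 1388 were called without it.

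At 72 h, S + D was below Sal in 8 members, all but SPRED1 and SPRED3, where 1.59% of all genes tested were lower and 1.42% higher. ETV5 was 12.8-fold lower (log2 difference -3.68, adjusted p = 1.57e-07), SPRY4 3.55-fold (-1.83, adjusted p = 0.00034), SPRY2 lower as well (-1.13, adjusted p = 6.91e-05), SPRY1 1.67-fold (-0.74, adjusted p = 0.000813) and PHLDA1 1.70-fold (-0.77, adjusted p = 0.00184). ETV4 was 2.73-fold lower (-1.45, adjusted p = 0.00211), and without S + D replicate 1 it was at -1.35 (adjusted p = 0.0111). ETV1, at 0 to 4 counts in S + D, was lower too (-5.01, adjusted p = 2.03e-05).

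Against Das at 72 h, S + D was lower in 4 members and higher in 2 (all genes: 17.7% lower, 14.3% higher). PHLDA1 was 4.39-fold lower (log2 difference -2.14, adjusted p = 1.23e-08), SPRY1 3.49-fold lower (-1.80, adjusted p = 1.69e-08) and ETV1 lower by 3.17 on the log2 scale (-3.17, adjusted p = 0.000423). SPRY2 was 1.51-fold lower (-0.59, adjusted p = 0.00182), a call lost without Das replicate 2 (-0.51, adjusted p = 0.0117) or the unnumbered S + D library (-0.47, adjusted p = 0.0129). SPRY4 (1.01, 0.404 to 1.62, adjusted p = 0.00841) and ETV4 (0.96, 0.376 to 1.55, adjusted p = 0.00928) were higher with S + D than with Das, with overlapping ranges. Each of these 2 calls was lost on leaving out any of 5 of the 8 libraries, at adjusted p up to 0.0364 for SPRY4 (without the unnumbered S + D library, 0.72) and 0.0285 for ETV4 (without S + D replicate 2, 0.88).

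An interaction term compared the response to S + D with the sum of the single responses on the log2 scale, where 0 is a response equal to the sum. At 24 h it called 0 of the 10 members (all genes: 0% higher, 0.0306% lower), with 0 at an unadjusted p under 0.05 and 0 by DESeq2. At 72 h it called 3 members, all higher than the sum (all genes: 3.43% higher, 4.09% lower). They were ETV4 (3.75, 95% confidence interval 2.96 to 4.54, adjusted p = 1.62e-05), SPRY4 (3.58, 2.79 to 4.37, adjusted p = 2.25e-05) and ETV5 (2.17, 1.39 to 2.96, adjusted p = 0.00112). For each of these genes the mean level was lower with Das alone than with S + D, at 1.26 and 2.49 CPM for ETV4, 0.793 and 1.64 CPM for SPRY4, and 0.368 and 0.576 CPM for ETV5. The ranges overlapped, and for ETV5 this difference did not pass (log2 difference 0.64, 95% confidence interval -0.00301 to 1.29, adjusted p = 0.096). With Das the counts a library were few, at 18 to 83 for ETV4, 14 to 54 for SPRY4 and 3 to 17 for ETV5. Leaving out any library kept the calls of these 3, over ranges of 3.50 to 4.11 for ETV4, 3.26 to 3.97 for SPRY4 and 1.86 to 2.48 for ETV5.

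The others did not pass in this test. SPRED1 was at 0.75 (adjusted p = 0.0103), and at 0.83 (adjusted p = 0.00352) without Das replicate 3. PHLDA1 was at 0.64 (adjusted p = 0.0221), SPRED3 at -1.54 (adjusted p = 0.0164), SPRY1 at -0.29 (-0.629 to 0.0551), SPRY2 at -0.18 (-0.578 to 0.220), SPRED2 at 0.15 (-0.330 to 0.634) and ETV1 at -0.11 (-1.03 to 0.813). The interval of ETV1, whose S + D libraries held 0 to 4 counts, reaches far in both directions.

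**Figure D4:**
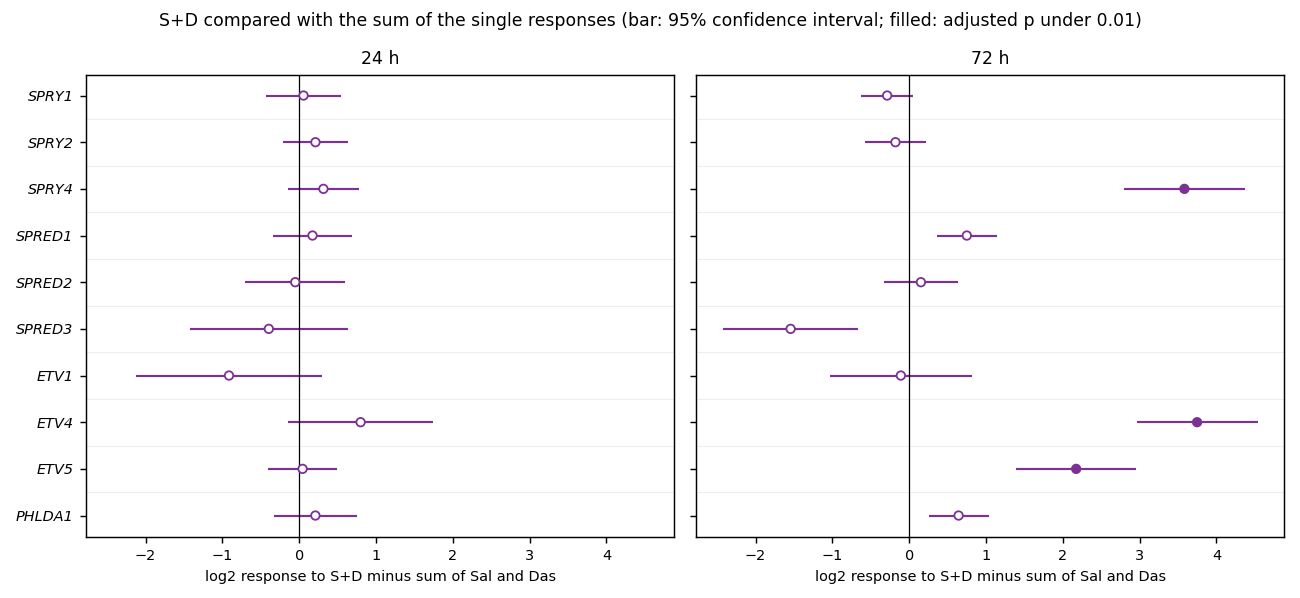
Response to S + D minus the sum of the responses to Sal and Das, on the log2 scale, for each member at 24 h (left) and 72 h (right), with 95% confidence intervals; filled points have an adjusted p under 0.01. At 72 h SPRY4, ETV4 and ETV5 lie at 2.17 to 3.75, and no member is called at 24 h.

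Time was compared in a fit of all 32 libraries. In Control, 2 members were higher at 72 h than at 24 h (all genes: 2% higher, 0.76% lower): SPRY1 by 0.59 log2 units (adjusted p = 0.00843) and ETV5 by 0.84 (adjusted p = 0.00375). These calls were fragile. SPRY1 kept its call only without the unnumbered 24 h library, with adjusted p of 0.0141 to 0.047 without any other, and ETV5 kept its call only without an unnumbered library, with 0.011 to 0.022 without any numbered one. In the numbered libraries alone 7 members were higher at 72 h, where 1880 of 17043 genes were called in either direction.

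The response to Sal was further down at 72 h than at 24 h in 7 members (all genes: 13.7% lower, 8.21% higher). The change between the times was -2.64 for ETV1 (adjusted p = 0.000154), -2.18 for PHLDA1 (adjusted p = 3.66e-08), -2.03 for ETV4 (adjusted p = 0.000253), -1.39 for SPRY4 (adjusted p = 0.00036), -1.29 for ETV5 (adjusted p = 0.000251), -1.12 for SPRY1 (adjusted p = 7.31e-05) and -0.85 for SPRED1 (adjusted p = 0.00246). For Das, 2 members went further down, where 0.174% of all genes tested were lower and 0.0522% higher. They were ETV5 (-2.65, 95% confidence interval -3.27 to -2.04, adjusted p = 1.89e-05) and SPRY4 (-2.05, -2.68 to -1.42, adjusted p = 0.00061). In the numbered libraries alone there were 7 such members, where 607 of 17043 genes were called in either direction. For S + D, 5 members went further down (all genes: 10.1% lower, 6.15% higher): ETV1 at -3.81, PHLDA1 at -2.54, ETV5 at -1.80, SPRY1 at -1.35 and SPRY2 at -0.91. SPRY4 was at -0.16 (-0.784 to 0.459) and ETV4 at -0.37 (-1.23 to 0.486) in that comparison.

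Other genes of the pathway were read from lists. A list of 13 further transcripts that ERK induces includes DUSP6, an ERK phosphatase, and EGR1, FOS and FOSL1, immediate early transcription factors. Of these 13, Sal lowered 3 at 24 h and 12 at 72 h, where 2.23% and 26.8% of all genes were called lower. With pairing by number the count at 24 h was 8, where 3055 of 16357 genes were called in either direction. Das lowered 9 at 24 h and 11 at 72 h (all genes: 6.88% and 9.36% lower) and raised EPHA4 at 24 h (log2 fold change 0.75, adjusted p = 0.00279). S + D lowered 9 at 24 h and all 13 at 72 h (all genes: 16.5% and 27.9% lower). With Das at 72 h, EGR1 was at -6.48 (adjusted p = 4.38e-06), FOSL1 at -4.68 (adjusted p = 4.05e-09), DUSP6 at -4.67 (adjusted p = 4.46e-08) and LIF, a cytokine, at -2.90 (adjusted p = 9.07e-06). With Sal at 72 h, DUSP6 was at -3.69 (adjusted p = 5.81e-08), MYC, a growth regulator, at -2.86 (adjusted p = 5.71e-09), IER3 at -2.70 (adjusted p = 1.14e-08) and DUSP4, another MAP kinase phosphatase, at -2.57 (adjusted p = 4.69e-11). The median over this list with Das at 72 h was -2.13, beside 0.02 over all genes tested.

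The components of the cascade itself, from receptors to the ERK kinases, formed another list. Of 23 genes listed, 22 were tested (ERBB4 did not pass the filter). At 24 h, 0 of them were called with Sal by edgeR, with 1 at an unadjusted p under 0.05, 1 lower by DESeq2 and 2 lower with pairing by number. Das raised 2, the RAF scaffold KSR1 (log2 fold change 2.05, adjusted p = 1.58e-05) and the receptor ERBB2 (0.65, adjusted p = 2.01e-05), against 6.99% higher among all genes, and S + D raised these 2 and lowered 3, against 17.1% higher and 16.5% lower. With pairing by number these counts were 3 higher and 1 lower for Das, and 7 higher and 5 lower for S + D. In either direction, the paired fit called 8215 of 16357 genes for S + D, 4485 for Das and 3055 for Sal. At 72 h Das called KSR1 alone (1.15, adjusted p = 0.00727), against 10.5% higher and 9.36% lower among all genes. Sal lowered 9 and raised 2, the kinases BRAF (0.78, adjusted p = 0.000116) and MAP2K1 (0.51, adjusted p = 0.00981), and S + D lowered 9 and raised BRAF (0.46, adjusted p = 0.00837). Among all genes 26.8% were called lower and 26.3% higher with Sal, and 27.9% and 27% with S + D. The list's median log2 fold change was -0.23 with Sal and -0.12 with S + D, beside 0.0042 and 0.012 over all genes tested. The falls with Sal included ERBB2 at -0.97 (adjusted p = 4.15e-06) and HRAS at -0.97 (adjusted p = 0.00308). EGFR, the most abundant receptor, was lower with S + D at 72 h (-0.67, adjusted p = 0.00101).

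Of 11 partners and regulators of these proteins, Das lowered CAV1, the caveolin that binds Sprouty proteins, at both times (log2 fold change -0.99, adjusted p = 0.000877, and -0.74, adjusted p = 0.0022). At 72 h, Sal lowered 4 and S + D 5 of the 11, where 26.8% and 27.9% of all genes were called lower. S + D lowered CAV1 (-1.50, adjusted p = 5.92e-07), the RAS-inactivating proteins RASA1 (-1.23, adjusted p = 1.06e-07) and NF1 (-1.01, adjusted p = 6.94e-05), and the ubiquitin ligase CBL (-0.71, adjusted p = 0.00239). Of 3 other genes of the same families, PHLDA2 was lowered by Das (-1.39, adjusted p = 7.06e-07) and S + D (-2.03, adjusted p = 6.32e-09) at 24 h and by all 3 treatments at 72 h, most by Das (-2.35, adjusted p = 1.75e-08). SPRY3 was lower with S + D at 72 h (-1.10, adjusted p = 0.000112).

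The shapes of the members across all 32 libraries were compared by Pearson's r of log2 CPM, as a description, since the libraries share drugs, times and depth. The highest values were 0.96 for SPRY4 with ETV4, 0.95 for SPRY4 with ETV5 and 0.95 for ETV1 with SPRED2. ETV1 with SPRED1, SPRED1 with SPRED2 and ETV4 with ETV5 were each at 0.93, and SPRY1 with PHLDA1 was at 0.85. SPRED3 ran against all other members, at -0.43 to -0.73. Among the other genes tested, TRIB2 (0.946), PHLDA2 (0.933) and WNT10A (0.927) were most like SPRY4, and TFPI2 (0.936), XDH (0.926) and ADGRF4 (0.906) most like ETV5. PADI2 (0.976), ENSG00000017373 (0.973, with no symbol in the tables used) and TFAP2C (0.969) were most like PHLDA1, and BICC1 (0.939), MME (0.928) and ACP3 (0.923) most like SPRED2.

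Promoters of 8 of the 10 members, 18 windows of 300 bases around a RefSeq start, were searched on both strands for 5 motifs. ETV4 and ETV5 had no entry. The ETS core CCGGAA, the site read by ETV factors among others, was in 6 windows of SPRY1, SPRY2, ETV1 and PHLDA1, and in 17.2% of all 35116 promoters in the table. The ETV1 windows chr7:13990653-13990952 and chr7:13990657-13990956 overlap and hold the same site, so it is counted more than once. The CIC octamers searched were in 1 window each, TGAATGAA in SPRED3 (1.65% of all promoters) and TGAATGGA in ETV1 (1.03%). The AP-1 site TGACTCA, read by FOS and FOSL1 with their partners, was in SPRED2 and SPRED3 (4.95%), and the CRE TGACGTCA in none (1.85%). No motif of the 5 contains another, and a match is a string of letters, not a bound site.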

How the data were processed

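The authors sequenced TruSeq RNA libraries of MDA-MB-468 cells as single-end reads. Per the submitters' processing notes, bcl2fastq 2.19, STAR 2.5.2, Cufflinks 2.1.1 and DESeq2 were used with GRCh37. The values the authors deposited are unnormalized whole-number read counts for each Ensembl gene. The counting program, its annotation and its use of strand are not given in the sources used here. Symbols, coordinates and exon lengths came from GENCODE on GRCh37, which matched 46537 of 48804 identifiers.

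These were fitted in edgeR 4.0.16 under R 4.3.3 (TMM, filterByExpr with a minimum count of 10, quasi-likelihood test, Benjamini-Hochberg adjustment over 16357 genes at 24 h, 16682 at 72 h and 17227 over both times). Each fit held the 16 libraries of its time, or all 32 where times were compared, and a gene was called at an adjusted p under 0.01. That threshold is the one of the study, whose further cutoff, an absolute log2 fold change above 1.5, was an alternative. Levels are CPM with TMM factors, and RPKM is CPM per kilobase of exon. The 72 h fit alone was tried on simulated counts, for Das against Control, with the same spread for every gene. It called 50 of 50 genes changed by 2.5 log2 units and 50 of 50 changed by -2.5. It also called 47 of 50 changed by 1, 45 of 48 changed by -1 and 2 of 16121 unchanged. The simulation held no shared offset of the unnumbered libraries, and the 24 h, interaction and time comparisons were not simulated.

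The numbers were taken to pair libraries of a time point where every same-numbered pair correlated above 0.1 in its deviations from the group means, which held at 24 h. This rule cannot show a pairing, since the shared offset of the unnumbered libraries also makes numbered libraries correlate. The source of the pairing is these data and the replicate numbers in the labels, not a stated batch. The main fits therefore hold no replicate term, at 24 h as at 72 h, and ignore this pairing. The alternatives were DESeq2 1.42.0 and its size factors, no filter, a replicate block, a term for the unnumbered libraries, the numbered libraries only, other sets of libraries in the fit, both cutoffs, an adjusted p under 0.05 and each library left out. Members, lists, naming rules and alternatives were chosen with earlier results of these data known. For each list and comparison, up to 4 genes with the largest called changes could be named. Genes most alike were the 3 with the highest Pearson's r for SPRY4, SPRED2, ETV5 and PHLDA1. Promoters are from RefSeq (GRCh38.p14).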

Additional observations from a re-analysis of the deposited data

Results flagged for a closer look

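In 15 of the 80 groups of 4 libraries (a member in a condition), 1 library stood apart from the other 3 by Dixon's test at the 95% level, which chance gives in about 1 in 20 groups. In 14 of the 15 it was the unnumbered library. In Control at 24 h this library was high for SPRY1 (36.1 CPM, others 21.0 to 23.0), ETV4 (33.3, others 22.2 to 23.7) and ETV5 (14.7, others 10.5 to 11.2) and low for SPRED2 (49.0, others 63.5 to 63.8) and ETV1 (6.37, others 8.53 to 8.94). With Sal at 24 h it was low for SPRED2 (42.2, others 64.2 to 65.3) and PHLDA1 (18.5, others 31.9 to 34.2). With Das at 24 h it was low for SPRED1 (11.0, others 17.2 to 17.8), ETV1 (0.354, others 1.28 to 1.42) and PHLDA1 (25.1, others 29.9 to 30.8). With S + D at 24 h it was high for SPRY1 (17.4, others 12.1 to 12.9) and low for SPRY2 (12.1, others 15.7 to 16.5) and SPRED2 (23.1, others 39.7 to 40.1). With S + D at 72 h it was high for SPRY4 (2.61, others 1.25 to 1.38). The remaining case was Control replicate 2 at 72 h for SPRED3 (0.397 CPM, others 0.242 to 0.268), which stands for 15 counts against 8 to 9. What sets the unnumbered libraries apart was not tested.

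The response to a treatment differed between 24 h and 72 h, by an interaction term with an adjusted p under 0.01, in 14 of 30 cases, each further down at 72 h. The differences in log2 fold change were -1.12 (SPRY1), -1.39 (SPRY4), -0.85 (SPRED1), -2.64 (ETV1), -2.03 (ETV4), -1.29 (ETV5) and -2.18 (PHLDA1) for Sal. They were -2.05 (SPRY4) and -2.65 (ETV5) for Das, and -1.35 (SPRY1), -0.91 (SPRY2), -3.81 (ETV1), -1.80 (ETV5) and -2.54 (PHLDA1) for S + D.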

How the results depend on the processing

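Of the 93 member changes called, 0 turned direction under any alternative or any library left out, while 19 of 724 values under an alternative and 45 of 880 with a library left out were no longer called. DESeq2's size factors changed no call. Calls lost in a fit of only the groups compared were, by adjusted p, SPRY2 for S + D (0.0107), ETV1 for Das against Sal (0.0121), SPRED1 for S + D against Sal (0.0263) and SPRY4 for S + D against Das (0.0108) at 24 h. At 72 h they were SPRY1 for Das (0.0143), SPRY2 for Das against Sal (0.0173), PHLDA1 for S + D against Sal (0.0157), and ETV4 (0.047), SPRY2 (0.0175) and SPRY4 (0.0482) for S + D against Das, and over time SPRY1 in Control (0.0286). A fit of all 32 libraries lost SPRY4 for S + D against Das at 24 h (0.0114), SPRY1 for Das at 72 h (0.0114) and ETV4 for S + D against Das at 72 h (0.0148). With no filter SPRY1 for Das at 72 h (0.0286), SPRY2 for Das against Sal at 72 h (0.0101) and SPRY1 in Control over time (0.0205) were lost. The numbered libraries alone lost SPRED3 for Das (0.0125) and S + D (0.0114) at 72 h. In what follows, counts are of members called and the count as reported is given first. With an absolute log2 fold change above 1.5 added, Sal at 24 h went from 1 to 0, S + D at 24 h from 8 to 4, S + D against Das at 24 h from 1 to 0, Das at 72 h from 10 to 4, Das against Sal at 72 h from 7 to 4, S + D against Sal at 72 h from 8 to 3, S + D against Das at 72 h from 6 to 3, Control over time from 2 to 0, and the responses to Sal and S + D over time from 7 to 3 and from 5 to 3. At an adjusted p under 0.05, Sal at 24 h went to 2, Das at 24 h from 5 to 9 and the interaction at 72 h from 3 to 6. With the replicate block, Sal at 24 h went to 3, Das at 24 h to 8, S + D against Das at 24 h to 2, the interaction at 72 h to 5 and Control over time to 6. At 72 h not every same-numbered pair correlated, so pairing by number has no footing there, though the unnumbered libraries correlated at 0.522 to 0.611. At 24 h the pairing is an assumption. The block changed no other count by over 1.5 times. In the numbered libraries only, the counts were 3 for Sal at 24 h, 8 for Das at 24 h, 7 for Das against Sal at 24 h, 8 for S + D against Sal at 24 h, 4 for S + D against Das at 24 h, 1 for the interaction at 24 h (ETV1, -1.26), and 7 each for Control and Das over time. Of 16257 genes, these libraries called 4722 for Das against Sal and 6731 for S + D against Sal at 24 h. For S + D against Das they called 5351, and for the interaction 827. With a term for the unnumbered libraries, Sal at 24 h gave 3, Das at 24 h 9, S + D against Das at 24 h 2, the interaction at 72 h 6 and Control over time 6. Over all genes, Sal at 24 h gave 1109 calls as reported, 3055 with the block, 3828 in the numbered libraries and 3628 with this term. For Das at 24 h these were 2268, 4485, 6382 and 5068. For S + D against Das at 24 h they were 1388, 3595, 5351 and 4213. The interaction at 72 h gave 1255, 2795, 2125 and 2971, and Control over time 475, 1461, 1880 and 1555. DESeq2 gave 2 for S + D against Das at 24 h and 5 for the interaction at 72 h. S + D against Das at 24 h gave 0 in a fit of all 32 libraries and 0 in a fit of only the groups compared, which gave 2 for this pair at 72 h, and with no filter Control over time gave 1.

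With a library left out, the counts ran from 1 to 1 (Sal), 5 to 5 (Das), 8 to 9 (S + D), 4 to 5 (Das against Sal), 4 to 7 (S + D against Sal), 0 to 2 (S + D against Das) and 0 to 0 (interaction) at 24 h. At 72 h they ran from 9 to 10, 8 to 10, 10 to 10, 6 to 7, 7 to 8, 3 to 7 and 3 to 4 in the same order. Over time they ran from 0 to 2 (Control), 7 to 7 (Sal), 2 to 2 (Das) and 5 to 6 (S + D). Calls gained in this way were, without the unnumbered Control library, SPRED2 (S + D, 24 h, -0.82, adjusted p = 0.00998), without S + D replicate 3, SPRED3 (S + D, 24 h, 1.27, adjusted p = 0.0057), without the unnumbered Sal library, SPRED1 (Das against Sal, 24 h, -0.78, adjusted p = 0.0026), PHLDA1 (-0.57, adjusted p = 0.00647) and SPRED2 (-0.86, adjusted p = 0.00653, both S + D against Sal, 24 h), and without the unnumbered Das library, ETV1 (S + D against Das, 24 h, -1.67, adjusted p = 0.00921) and SPRED2 (the same at 72 h, -0.65, adjusted p = 0.00196). SPRED2 was also called for S + D over time without the unnumbered S + D library of 24 h (-1.10, adjusted p = 0.00229) or the unnumbered Control library of 72 h (-1.04, adjusted p = 0.00809). At 72 h SPRY2 was called for Sal without Sal replicate 2 (-0.49, adjusted p = 0.00726), and SPRED1 for the interaction without Das replicate 3 (0.83, adjusted p = 0.00352). The cause of these changes was not tested.

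Values that turned direction had not been called. In the numbered libraries only they were 0.041 for SPRED2 (Sal, 24 h), -0.090 for PHLDA1 (Das against Sal, 24 h), -0.50 for ETV4 (S + D against Das, 24 h), -0.14 for SPRED3 (S + D against Das, 72 h), 0.14 for ETV1 (interaction, 72 h), -0.11 for SPRY1 (Das over time) and 0.036 for ETV4 (S + D over time). For the interaction at 24 h they were -0.23 (ETV5), -0.0056 (PHLDA1), -0.025 (SPRED1), -0.25 (SPRY1) and -0.088 (SPRY4). In a fit of all 32 libraries PHLDA1 was at -0.0087 for Das against Sal at 24 h. With a library left out, 44 uncalled values turned. Their ranges at 24 h were -0.098 to 0.12 (SPRED2) for Sal, -0.16 to 0.10 (PHLDA1) and -0.13 to 0.29 (SPRED3) for Das against Sal, -0.57 to 0.26 (ETV4), -0.23 to 0.053 (SPRED1) and -0.29 to 0.085 (SPRED2) for S + D against Das, and -0.12 to 0.11 (ETV5), -0.013 to 0.28 (SPRED1), -0.27 to 0.11 (SPRED2) and -0.20 to 0.11 (SPRY1) for the interaction. At 72 h they were -0.33 to 0.031 (SPRED3) for S + D against Sal, -0.12 to 0.23 (SPRED3) for S + D against Das and -0.86 to 0.29 (ETV1) for the interaction. Over time they were -0.22 to 0.025 (SPRY2) for Sal, -0.11 to 0.19 (SPRY1) for Das and -0.59 to 0.23 (ETV4) for S + D.

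The limits are those of few counts and few libraries. SPRED3 had 5 to 37 counts a library and ETV1 0 to 4 in S + D at 72 h, so their folds are imprecise. Against Control at 24 h, SPRED3 had a value in 7 alternative fits for each treatment, where the other members had 8. With 4 libraries per condition, of which the unnumbered one differs, small changes of SPRY1, SPRY2 and SPRED2 pass or miss the threshold by setting.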
